A study of Mus musculus with 8 samples.

Results

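The metallothionein genes Mt1 and Mt2, the zinc-sensing factor gene Mtf1 and 7 zinc transporter genes were followed after siRNA against Fto in 3T3-L1, a line of mouse embryo fibroblasts able to turn into adipocytes. The 10 genes were taken by symbol from the 23699 deposited entries, and all 10 had a mean of at least 1 FPKM (fragments per kilobase of transcript, scaled to the mapped fragments of the library) over the 8 libraries. The exporters were Slc30a1, Slc30a5 and Slc30a7, and the importers Slc39a6, Slc39a7, Slc39a10 and Slc39a14. They were chosen with their FPKM in the Fto siRNA and control siRNA libraries known, so the differences of these 10 genes are described and carry no test. Both groups were undifferentiated preadipocytes of the same line, taken 2 days past confluence; before confluence they had been transfected for 24 hours with 40 nM siRNA, 3 Stealth siRNAs as a mix, using a lipid reagent (Lipofectamine). One group of 4 libraries received siRNAs against Fto, an RNA and DNA demethylase, and the other 4 non-targeting siRNAs. The labels give no edited allele, the siRNA was transient, and a single cell line was used. The labels do not say whether the 4 replicates of a group came from separate cultures, so p-values here measure only the spread between these libraries, which can be technical.

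Metallothioneins are small proteins rich in cysteine that bind zinc and copper and release them again. MTF-1, the product of Mtf1, binds DNA at metal response elements when cellular zinc is high and drives transcription of metallothionein genes and of the exporter gene Slc30a1. Slc30a proteins move zinc out of the cytosol, to the outside or into organelles, and Slc39a proteins move it into the cytosol.

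The promoters of Mt1, Mt2 and Slc30a1 are shown because they held more matches to the metal response element core than those of the other members. The core was searched as TGCACNC and as TGCGCNC, on both strands, in RefSeq windows of 300 bases that run from 250 bases before the annotated start to 50 bases after it, in build GRCm38.p6. Each line below gives the 250 bases before the start, 5′ to 3′ on the strand of the gene, with the matches in capitals. These stretches of 250 bases lie at chr8:94178839-94179088 for Mt1, chr8:94172368-94172617 for Mt2 and chr1:191906531-191906780 for Slc30a1, all on the plus strand.
Mt1: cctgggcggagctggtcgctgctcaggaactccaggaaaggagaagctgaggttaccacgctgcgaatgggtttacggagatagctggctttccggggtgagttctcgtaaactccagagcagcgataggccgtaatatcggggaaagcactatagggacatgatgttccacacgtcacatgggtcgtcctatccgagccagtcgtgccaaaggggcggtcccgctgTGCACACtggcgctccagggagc
Mt2: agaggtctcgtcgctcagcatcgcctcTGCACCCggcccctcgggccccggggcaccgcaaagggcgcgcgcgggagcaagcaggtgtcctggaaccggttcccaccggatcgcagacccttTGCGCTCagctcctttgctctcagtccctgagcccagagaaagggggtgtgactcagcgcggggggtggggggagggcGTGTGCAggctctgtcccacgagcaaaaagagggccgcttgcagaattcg
Slc30a1: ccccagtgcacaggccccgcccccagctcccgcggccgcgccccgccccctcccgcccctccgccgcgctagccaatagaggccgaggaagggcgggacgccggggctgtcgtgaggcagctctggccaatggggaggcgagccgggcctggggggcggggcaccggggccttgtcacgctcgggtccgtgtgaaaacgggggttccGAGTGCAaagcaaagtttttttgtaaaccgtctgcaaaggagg
Counting the 50 bases after the start, Mt2 held 4 matches, Mt1 held 3 and Slc30a1 held 2. Of 32851 promoter windows, 25.7% held at least 1 match, 7.11% at least 2, 1.97% at least 3 and 0.517% at least 4. The Mt1 matches lay at positions -23 to -17 (TGCACAC), 3 to 9 (TGCACTC) and 21 to 27 (TGCGCTC), counted from the annotated start. Those of Mt2 lay at -223 to -217, -128 to -122, -50 to -44 and 5 to 11, the last 2 of them on the other strand, and those of Slc30a1 at -43 to -37 and 31 to 37, both on the other strand. Slc30a5 held 1 match, at -48 to -42, and no match was found in the windows of Mtf1, Slc30a7 and Slc39a7 or in either of the 2 windows of Slc39a10. No window was used for Slc39a6 and Slc39a14. Matches were not particular to the members: the window of Slc30a4, an exporter gene outside them, held 3, as many as that of Mt1. Windows of Mt3, Mt4, Slc39a3, Slc39a8, Slc39a11 and Slc39a13 with 1 match each were also found. Those of Slc30a6, Slc30a9, Slc39a1 and Slc39a9 held no match. Only these windows were searched, so each count depends on the annotated start and leaves out any match beyond the window. Whether the annotated starts are those used in these cells was not tested. A match is a run of letters and is not evidence of binding.

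**Figure D1:**
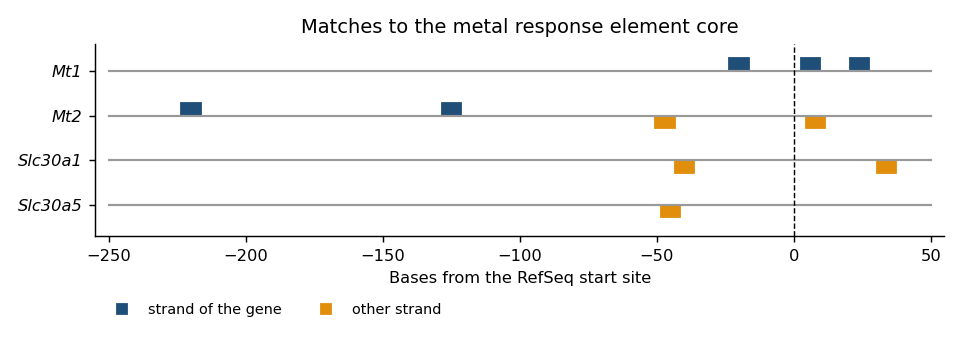
Positions of matches to the metal response element core in the RefSeq promoter windows of the 4 members that held any, with bases from the annotated start on the horizontal axis and 1 line per gene. Boxes above a line are on the strand of the gene and boxes below it on the other strand. Mt2 held 4 matches, Mt1 held 3, Slc30a1 held 2 and Slc30a5 held 1.

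The libraries were of similar depth and the knockdown was present in each. FPKM of a library summed to 454737 to 484842, and the fragments implied by the Cufflinks intervals came to 18.9 to 24.4 M per library. Fto held 54.6, 55.5, 56.2 and 55.2 FPKM in the controls and 13.8, 10.7, 12.3 and 11.6 FPKM after Fto siRNA, 78.1% lower by the means (exact two-sided permutation p = 0.0286, the smallest that 70 arrangements allow). All 8 preadipocyte and fibroblast markers were detected, and Dlk1 held a control mean of 919 ± 78.6 FPKM (SD, n = 4). Limma called 4 of the 8 higher and 2 lower after Fto siRNA at an adjusted p under 0.05, beside 6.97% and 12.3% of all tested genes. For Col1a1, which was among those called higher, the groups overlapped. Summed over 6 mature adipocyte markers, the libraries held 51.0 to 81.7 FPKM in the controls and 53.4 to 65.7 FPKM after Fto siRNA, with Lep at 0 in 6 of 8 libraries. Fabp4 made up most of these sums, with means of 57.4 and 52.9 FPKM. Adipoq held 9.19 FPKM in control replicate 4 and 2.77 to 3.20 FPKM in the other controls. Cidec held 3.26 FPKM in control replicate 4 and 0.354 to 1.19 FPKM in the others. Of the 3 adipocyte markers tested limma called 0, and 0 had a positive log2 fold change. Summed over 7 immune, endothelial and epithelial markers the libraries held 0.915 to 1.46 and 1.24 to 1.68 FPKM, with Emr1 and Epcam listed at 0 in all 8. The part of these cell types in the results below was not tested, and in bulk RNA fewer cells of a type and less RNA per cell cannot be told apart.

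Levels in the 4 control libraries spanned from the metallothioneins, among the most abundant transcripts, down to Slc30a1 and Mtf1. FPKM is per transcript length, so the genes were ordered on it, and the order holds only as far as the lengths used are right. Mt1 was highest, with a mean of 446.0 ± 28.4 FPKM (SD, n = 4), above 99.0% of the 11398 genes tested, and its lowest control library lay above the highest of Mt2. Mt2 followed at 146 ± 9.66 FPKM and Slc39a7, an importer of the endoplasmic reticulum and Golgi that releases zinc from those stores into the cytosol, at 126 ± 3.12 FPKM. Mt2 and Slc39a7 differed by 1.16 times in their means, with ranges of 138 to 159.8 and 124 to 131 FPKM that did not overlap.
The other transporters were well below, the mean of Slc39a7 being 4.39 times that of the next, Slc30a5. Slc30a5, an exporter into the secretory pathway, held 28.8 ± 0.882 FPKM, Slc39a6 held 21.1 ± 0.413, Slc39a14 held 17.2 ± 0.575, Slc30a7, an exporter into the Golgi, held 12.2 ± 0.342 and Slc39a10 held 8.31 ± 0.135 FPKM (SD, n = 4 each). Mtf1 stood at 4.20 ± 0.154 FPKM, and Slc30a1, the exporter of the plasma membrane, was lowest at 3.72 ± 0.251 FPKM, above 14.0% of tested genes. For every neighbouring pair of members in this order the 4 control values did not overlap, the closest being Mtf1 (3.97 to 4.29 FPKM) and Slc30a1 (3.42 to 3.93 FPKM). The order of these 2 genes is less sure. Intervals of single libraries reached 7.39 to 8.40% either side for Mtf1 and 9.37 to 10.6% for Slc30a1, and Mtf1 shares part of its locus with 1110065P20Rik.
Mt3 and Mt4, the other metallothionein genes of the families, were listed at 0 in all 8 libraries. Of the other exporter genes Slc30a2, Slc30a3, Slc30a8 and Slc30a10, and of the importer genes Slc39a2, Slc39a4, Slc39a5 and Slc39a12, each had a mean below 1 FPKM, with Slc39a2 the highest at 0.206 FPKM in the controls.

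**Figure D2:**
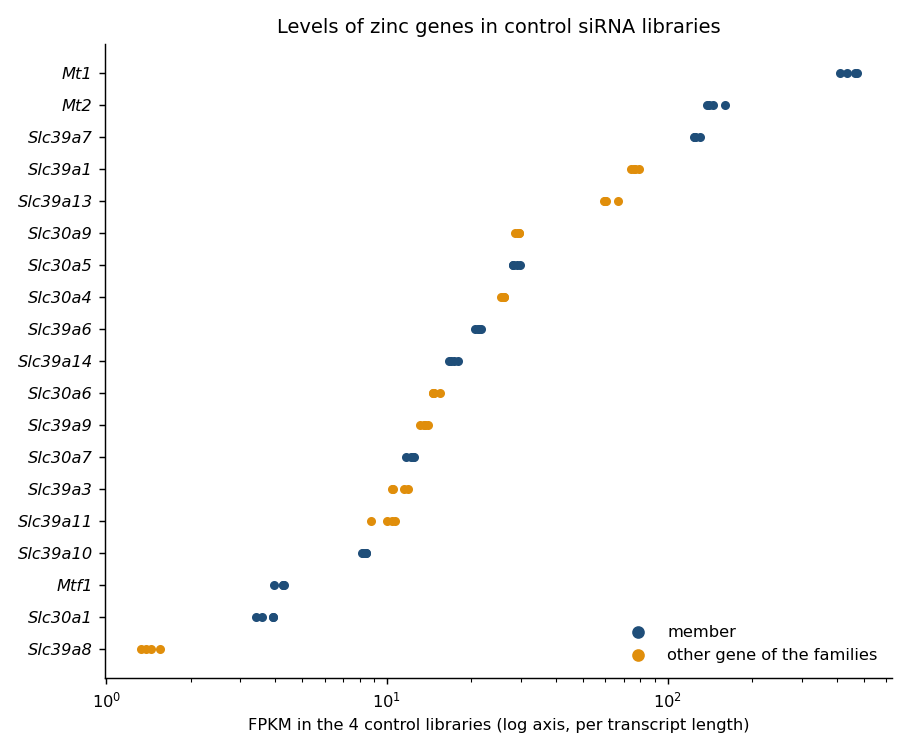
FPKM of zinc genes in the 4 control siRNA libraries, on a log axis, with 1 point per library and genes ordered by their mean. The 10 members run from 446.0 FPKM for Mt1 to 3.72 FPKM for Slc30a1, and the other tested genes of the families lie between 76.4 FPKM for Slc39a1 and 1.43 FPKM for Slc39a8.

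Both expressed metallothionein genes were lower in every library with Fto siRNA than in every control. Mt1, at mm9 chromosome 8, 96702989 to 96704227, held 410.4, 436, 471 and 466 FPKM in controls 1 to 4 and 332, 247, 309 and 301 FPKM in Fto siRNA libraries 1 to 4. The highest knockdown library lay below the lowest control, and Fto siRNA replicate 2 lay furthest down. The mean went from 446.0 ± 28.4 to 297 ± 36.2 FPKM (SD, n = 4), or by -33.3%. The log2 fold change was -0.59 with SE 0.084, on the log2(FPKM + 0.5) scale used throughout, which understates the change of low genes.
Mt2, at mm9 chromosome 8, 96696518 to 96697467, held 138, 140.4, 159.8 and 146 FPKM in the controls and 116, 96.0, 101 and 118 FPKM after Fto siRNA. Again the groups did not overlap and Fto siRNA replicate 2 was the lowest of the 8 libraries. The mean went from 146 ± 9.66 to 108 ± 10.9 FPKM (SD, n = 4), which is -26.2%, or -0.44 with SE 0.071 on the log2 scale.
On mm9 the start of Mt1 lies 5522 bases past the end of Mt2 and 2510657 bases past the end of the Fto locus. Their transcripts shared exact runs of at most 20 bases in the GENCODE M21 sequences, and no read length is stated in the labels.

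Summed, Mt1 and Mt2 held 549, 576, 631 and 612 FPKM in the controls and 448, 343, 410.4 and 419 FPKM after Fto siRNA, -31.6% by the means. The ratio of Mt1 to Mt2 FPKM was 2.97, 3.11, 2.95 and 3.20 in the controls and 2.87, 2.57, 3.06 and 2.55 after Fto siRNA. The ratios of the groups overlapped, since knockdown replicate 3 lay between the controls, so a shift between the 2 genes was not separated from the spread of the libraries. Spread between libraries exceeded counting error for both genes: the SD was 3.63 and 5.51 times the mean counting error of Cufflinks for Mt1 in the control and Fto siRNA groups, and 2.2 and 2.81 times for Mt2. For Slc30a5, by comparison, these values were 1.33 and 1.07. For Slc39a7, the member next below Mt2 in control level, they were 1.86 and 2.85. Spread above counting error was thus not particular to the metallothioneins.

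Mtf1 was slightly higher in every library with Fto siRNA than in every control. The part of its product in the metallothionein values was not tested. Mtf1 held 4.29, 4.28, 3.97 and 4.26 FPKM in the controls and 4.41, 4.54, 4.52 and 4.53 FPKM after Fto siRNA, a log2 fold change of 0.09 with SE 0.050. No overlap was seen between the groups, and control replicate 3 lay apart from the other controls. The interval of a single library reached 7.39 to 8.40% either side of its value, and the means of the groups were 7.22% apart. Such an interval holds for a single library and not for a mean of 4 libraries, so the 2 are not compared. The Mtf1 locus overlaps that of 1110065P20Rik, which held control and Fto siRNA means of 40.4 and 41.7 FPKM, and since no source used here states strandedness, reads from the stretch they share cannot be told apart.

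**Figure D3:**
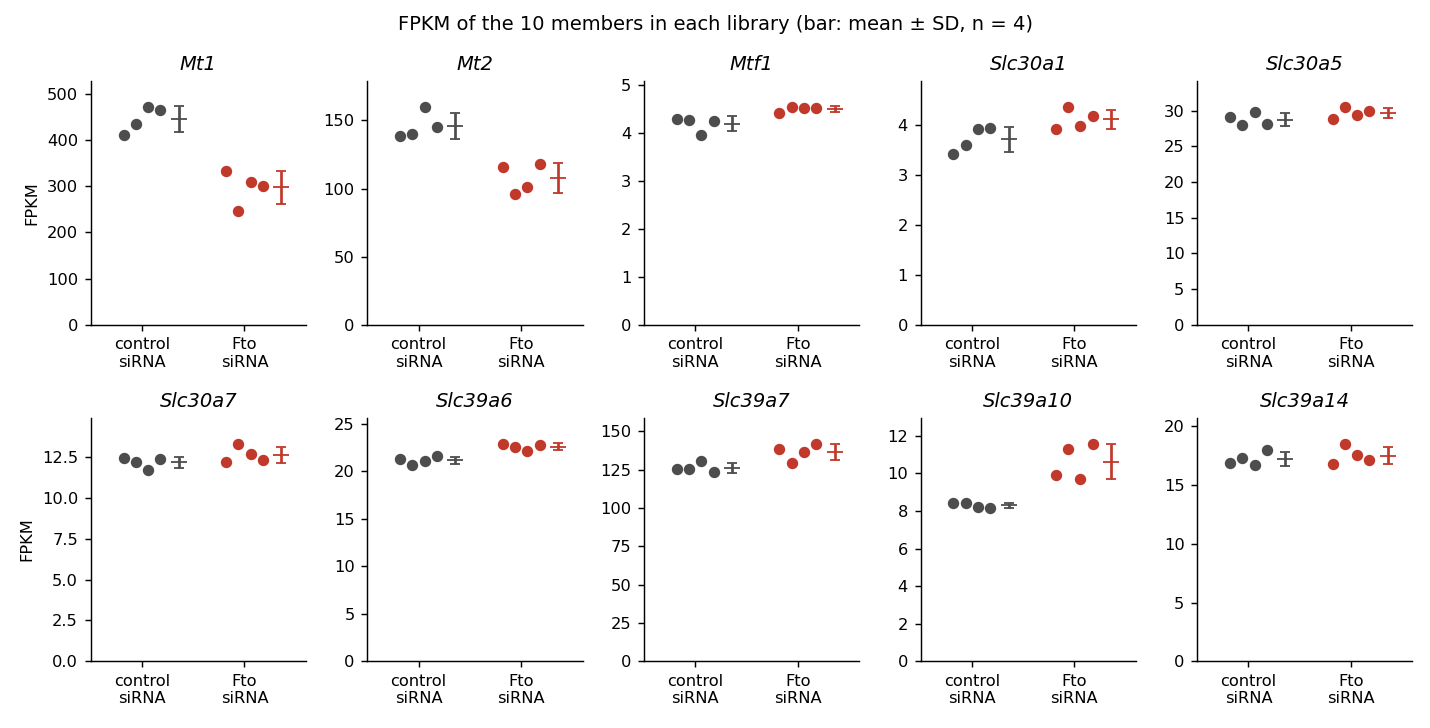
FPKM of the 10 members in each library, 1 panel per gene with its own axis from 0, control siRNA in grey and Fto siRNA in red, with the mean and SD of 4 libraries beside the points. Mt1 and Mt2 are lower and Slc39a10 higher in all 4 Fto siRNA libraries, while the points of Slc30a5, Slc30a7 and Slc39a14 overlap between the groups.

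The exporters differed little between the groups. Slc30a1, at mm9 chromosome 1, 193730660 to 193737126, held 3.42, 3.601, 3.91 and 3.93 FPKM in the controls and 3.92, 4.36, 3.99 and 4.17 FPKM after Fto siRNA. The groups overlapped, with 3 of the 4 knockdown libraries above all controls, and the log2 fold change was 0.13 with SE 0.063. The mean of Slc30a1 was 10.7% higher after Fto siRNA. Whether the matches to the metal response element core bear on these values was not tested.
Slc30a5, which carries zinc into the secretory pathway, held 29.1, 28.02, 29.9 and 28.1 FPKM in the controls and 28.8, 30.5, 29.4 and 30.0 FPKM after Fto siRNA (log2 fold change 0.04, SE 0.035). For Slc30a7 the values were 12.4, 12.2, 11.7 and 12.3 FPKM against 12.2, 13.3, 12.7 and 12.3 FPKM (0.05, SE 0.041). Both sets overlapped, and 2 knockdown libraries of each lay above all controls.
The sum over the 3 exporters was 43.8 to 45.5 FPKM in the controls and 44.9 to 48.2 FPKM after Fto siRNA, ranges that overlap.

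Among the importers Slc39a10 stood out in size. Slc39a10, an importer of the plasma membrane, lies at mm9 chromosome 1, 46864389 to 46910354. It held 8.45, 8.40, 8.21 and 8.18 FPKM in the controls and 9.93, 11.3, 9.70 and 11.6 FPKM after Fto siRNA. All 4 knockdown libraries lay above all controls, and they fell into a lower pair (replicates 1 and 3) and a higher pair (replicates 2 and 4). The mean went from 8.31 ± 0.135 to 10.6 ± 0.945 FPKM (SD, n = 4), 27.8% higher, with a log2 fold change of 0.33 and SE 0.059. The SD of the controls was 0.479 times the counting error and that of the Fto siRNA libraries 2.88 times.
Slc39a6, its close relative in the LIV-1 subfamily, held 21.2, 20.6, 21.0 and 21.6 FPKM in the controls and 22.9, 22.5, 22.1 and 22.8 FPKM after Fto siRNA. These groups did not overlap either, but the difference was smaller, at 6.82% of the mean (log2 fold change 0.09, SE 0.032). The ratio of Slc39a10 to Slc39a6 FPKM was 0.378 to 0.407 in the controls and 0.434 to 0.507 after Fto siRNA, without overlap, so the 2 genes differed unequally.
Slc39a7 held 125, 125, 131 and 124 FPKM in the controls and 138, 129.7, 137 and 142 FPKM after Fto siRNA (log2 fold change 0.11, SE 0.036). Knockdown replicate 2 lay among the controls and the other 3 above them.
Slc39a14, an importer of the plasma membrane that also carries iron and manganese, held 16.9, 17.3, 16.7 and 17.97 FPKM in the controls and 16.8, 18.5, 17.5 and 17.1 FPKM after Fto siRNA (log2 fold change 0.02, SE 0.042). Cufflinks marked its value as failed in control replicate 1 and Fto siRNA replicate 2. Without those libraries the means were 17.3 ± 0.646 and 17.1 ± 0.347 FPKM (SD, n = 3 each), so the sign of the small difference depended on them.
The sum over the 4 importers was 172, 172, 177 and 172 FPKM in the controls and 188, 182, 186 and 193 FPKM after Fto siRNA, 8.37% higher by the means, and Slc39a7 made up most of it.

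Of the 10 members limma called 2 lower and 1 higher at an adjusted p under 0.05, and 7 were not called. Over all 11398 tested genes 19.3% were called, 12.3% lower and 6.97% higher, and nothing is read from the members' counts, since these values chose them. The groups did not overlap for 2 members that were lower (Mt1 and Mt2) and 3 that were higher (Mtf1, Slc39a6 and Slc39a10), beside 15.1% and 9.08% of tested genes, 24.2% in all. Over the 15 alternatives, 8 of which leave out 1 library, the log2 fold change ran from -0.65 to -0.50 for Mt1, from -0.49 to -0.39 for Mt2 and from 0.29 to 0.37 for Slc39a10. All 7 transporter members had a higher mean after Fto siRNA, with a median log2 fold change of 0.09, beside -0.02 over the tested genes. For Slc39a14 the sign depended on libraries that Cufflinks marked as failed. Of the 9 other tested family genes, 5 had a positive log2 fold change, with a median of 0.01. A shared rise of transporters is not read from this, since these values chose the members. With the libraries scaled to each other by median ratios 3 members were called higher, Slc39a6 and Slc39a7 in addition, and of all calls 47.1% were then higher, beside 36.2% on the FPKM as deposited. Slc39a6 was also called with no filter on low values, and Slc39a7 without control replicate 3 or without Fto siRNA replicate 2.

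**Figure D4:**
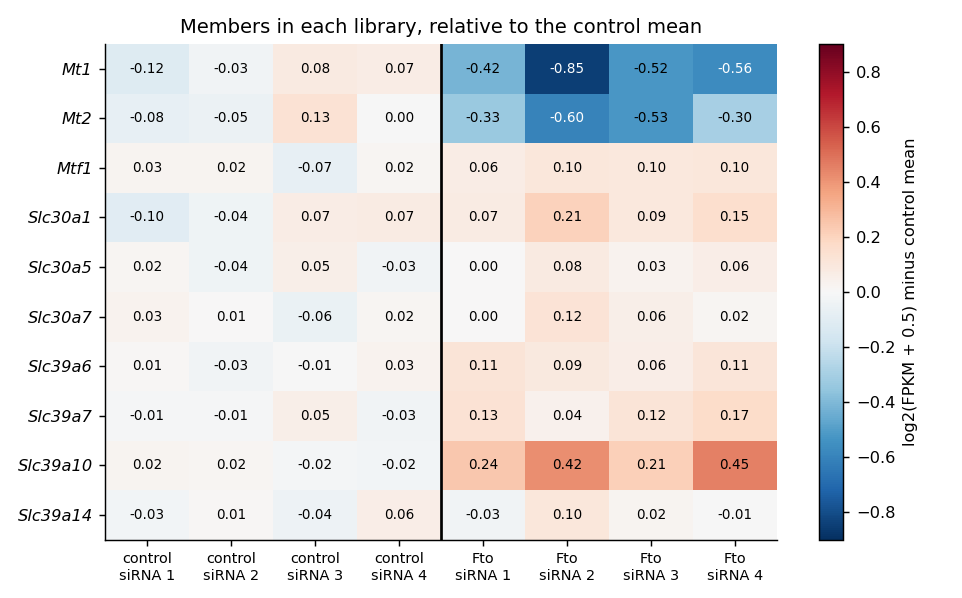
log2(FPKM + 0.5) of each member in each library minus its control mean, with members in rows and libraries in columns, controls left of the line. Mt1 runs from -0.42 to -0.85 and Mt2 from -0.30 to -0.60 in the Fto siRNA libraries, Slc39a10 from 0.21 to 0.45, and the controls stay within 0.13 of their means.

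Fto siRNA replicate 2 held the lowest Mt1 and Mt2 of all libraries and the highest Slc30a1, Slc30a5, Slc30a7 and Slc39a14, the last of them a value that Cufflinks marked as failed. In the values relative to the control mean it stood at -0.85 for Mt1, -0.60 for Mt2, 0.21 for Slc30a1 and 0.42 for Slc39a10. It was not extreme in each member, since Slc39a7 was lowest there among the knockdown libraries and Slc39a10 was higher in replicate 4, at 0.45. Without this library the log2 fold changes were -0.50 for Mt1, -0.39 for Mt2 and 0.30 for Slc39a10.

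The remaining genes of the families gave 1 call. Besides the members, 9 genes of the Slc30a and Slc39a families were tested, and as they are what remained after the members were picked, their count says little about the families. The importer gene Slc39a9 rose from a mean of 13.6 ± 0.356 to 15.1 ± 0.270 FPKM (SD, n = 4), by 0.14 on the log2 scale with SE 0.036 (limma adjusted p = 0.0198), and was higher in 4 of 4 knockdown libraries. This call was lost without Fto siRNA replicate 2 (limma adjusted p = 0.0526) or replicate 3 (0.0516). Limma called 0 of the 9 lower, and at an unadjusted p under 0.05 it had 3 higher and 0 lower. Over all tested genes 6.97% were called higher and 12.3% lower, and 12.5% and 19.9% passed the unadjusted threshold, so 1 call of 9 is near the background.
Those 3 were Slc39a9, Slc39a3 and Slc30a9. Slc39a3, an importer, had means of 11.1 ± 0.704 and 12.4 ± 0.575 FPKM (SD, n = 4), 0.15 apart on the log2 scale (limma adjusted p = 0.0679), and was called without control replicate 3 (0.0328) and under both scalings (0.0362 and 0.0369). Slc30a9 had means of 29.2 ± 0.465 and 30.9 ± 0.176 FPKM, 0.08 apart (limma adjusted p = 0.092), and was called with no filter on low values (0.0168). For neither gene did the groups overlap, but those of Slc39a3 nearly touched, at 11.86 FPKM in control replicate 3 and 11.87 FPKM in Fto siRNA replicate 3.
The other 6 were Slc30a4 (log2 fold change -0.03), Slc30a6, the partner of Slc30a5 in a heterodimer (-0.08), Slc39a1 (-0.0045), Slc39a8 (-0.09), Slc39a11 (0.01) and Slc39a13 (0.04), with limma adjusted p of 0.376 to 0.947 and overlapping groups. The median over the 9 genes was 0.01.

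**Figure D5:**
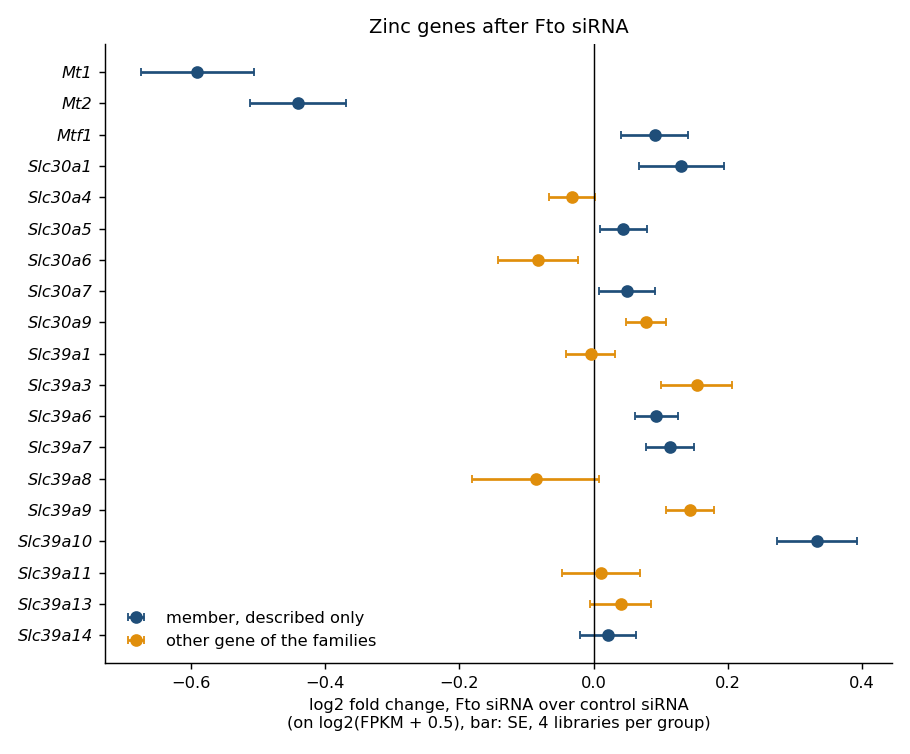
log2 fold change of Fto siRNA over control siRNA for the 10 members and the 9 other tested genes of the families, with the SE of the limma fit as bars. Mt1 (-0.59) and Mt2 (-0.44) lie left of the line at 0 and Slc39a10 (0.33) lies furthest right, while the 9 other genes lie between -0.09 and 0.15.

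Neither of 2 sequence words picked for the low values of their carriers in these data was found in the 3′ UTRs of Mt1 and Mt2. The words are GACCTTA and ACCTTAA, chosen earlier from these same libraries. All 10 members had an annotated 3′ UTR of at least 50 bases in GENCODE M21, and 1 of them, Mtf1, held a word, beside 1523 of 9833 tested symbols with such a UTR, 15.5%. Of the other tested family genes, Slc30a6 and Slc30a9 held one.

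Tested genes near the metallothionein locus and genes with a like profile were named by rule. Within 100 kb of Mt1 the only tested gene besides Mt2 was Nup93, a nuclear pore gene, which rose from a mean of 26.9 ± 1.65 to 29.9 ± 0.866 FPKM (SD, n = 4), by 0.16 on the log2 scale (limma adjusted p = 0.0392). The call of Nup93 was lost when any 1 library other than control replicate 4 was left out (limma adjusted p 0.0620 to 0.0990), nor with no filter (0.120).
Likeness was measured as the root mean square difference from the mean log2 profile of Mt1 and Mt2 over the 8 libraries, each gene centred on its own mean. The 5 nearest genes were Pltp, Dnase2a, Gaa, Dpp7 and Abhd14b, with differences of 0.0652 to 0.0799, beside a median of 0.281 over tested genes and 0.114 between Mt1 and Mt2. Pltp, a phospholipid transfer protein, had means of 66.0 ± 2.06 and 47.7 ± 3.33 FPKM (SD, n = 4), -0.47 on the log2 scale. Gaa, the lysosomal acid alpha-glucosidase, had means of 102 ± 2.51 and 71.96 ± 3.86 FPKM, -0.50 on that scale. Dnase2a, an acid DNase, Dpp7, a dipeptidyl peptidase, and Abhd14b had log2 fold changes of -0.49, -0.44 and -0.50. The measure picks genes that differ like Mt1 and Mt2, so their direction is no separate result. The Pltp locus overlaps that of Ctsa, which was itself lower, with means of 139 and 107 FPKM (log2 fold change -0.37, limma adjusted p = 5.39e-04), and reads from the stretch they share cannot be told apart.

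In lists of genes of other metals and of other inducers of metallothionein, single genes were called in each direction. Over all tested genes 12.3% were called lower and 6.97% higher, and with counts as small as those below no list is set apart from that background. Of 3 tested targets of MTF-1 outside the families (Gclc, Slc40a1 and 2700094K13Rik, the older name of Selenoh), limma called 0, also at an unadjusted p under 0.05, with log2 fold changes of 0.01, 0.13 and -0.02. Among 11 copper genes Slc31a1, the copper importer, went from 18.6 ± 0.401 down to 14.95 ± 0.271 FPKM (SD, n = 4), -0.30 on the log2 scale (limma adjusted p = 3.6e-04). Cp, the ferroxidase ceruloplasmin, was lower at -0.28 (limma adjusted p = 9.15e-04), Sco1, an assembly factor of cytochrome oxidase, was higher at 0.17 (adjusted p = 0.0324), and 8 did not pass.
Of 12 iron genes Heph, the ferroxidase hephaestin, was lower at -0.26 (limma adjusted p = 0.00761), Steap3, a metalloreductase, lower at -0.17, Ncoa4, the receptor for ferritin autophagy, higher at 0.13, and 9 did not pass. Of the called genes named outside the families, Slc31a1, Fkbp5, Gclm, Srxn1, Nup93, Dnase2a and Fto itself carry GACCTTA or ACCTTAA in the 3′ UTR. Of tested symbols with a searched 3′ UTR, 15.5% carry one. The words were picked for the low values of their carriers in these libraries, so carriers among the lower genes are no result. The Cp locus overlaps that of Hps3.
Among 8 glucocorticoid-induced genes Tsc22d3, which encodes the leucine zipper protein GILZ, went from 43.2 ± 1.16 up to 64.4 ± 2.85 FPKM (SD, n = 4), 0.57 on the log2 scale (limma adjusted p = 1.68e-05). Fkbp5, a chaperone of the receptor, was higher at 0.20 and Errfi1, a feedback inhibitor of EGF receptor signalling, lower at -0.18, with 5 not passing. Of 8 NRF2 targets 2 rose and 2 fell, with the quinone reductase gene Nqo1 at 0.36 (limma adjusted p = 0.0119), Gclm at 0.15, Srxn1 at -0.20 and Txnrd1, named beyond the rule after its value was seen, at -0.11. Txnrd1 lay near the threshold (limma adjusted p = 0.044), and whether its call held under the alternatives is not given here. Of 5 genes of the interleukin-6 and acute-phase response Lcn2 rose by 0.45 (limma adjusted p = 0.0189), with overlapping groups, and 4 did not pass. The part of these pathways in the metallothionein values was not tested. Some of these calls were lost without 1 library, at limma adjusted p of 0.0503 to 0.106: Steap3 (control replicate 2 or Fto siRNA replicate 4), Srxn1 (control 4), Lcn2 (control 1, Fto siRNA 2 or 4), Sco1 (any but control 1 and Fto siRNA 1), Gclm (any but control 1 and Fto siRNA 2) and Ncoa4 (any but Fto siRNA 1). With no filter on low values Fkbp5 and Nqo1 were not called either. Gclc, Slc40a1 and Hmox1 each stand in 2 of the lists.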

How the data were processed

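Total RNA was sequenced by the authors in 8 libraries of 3T3-L1 cells, 4 per group. The authors used TopHat2 2.0.11 and Cufflinks 2.2.1 on mm9, per the submitters' processing notes, and deposited FPKM with an interval and a status per gene, per the file headers. FPKM divides by transcript length and mapped fragments and is shared among near-identical genes, so it holds no counts. Depth was worked out from the intervals, read as 2 counting errors either side, which cover counting error only. The test between groups was limma 3.58.1 in R 4.3.3, on log2(FPKM + 0.5) for 11398 genes with a mean of at least 1 FPKM, two-sided, with a trend in the variance and Benjamini-Hochberg adjustment over all of them. On simulated data with 200 changed genes among 11398, the fit recovered 63.5% of those changed by 0.3 and 95.5% of those changed by 0.6 on the log2 scale. Among the unchanged genes it called 6 and 16. In the data 19.3% of tested genes were called, a larger share than was changed in the simulation, so these rates need not hold here. The members and lists were chosen with earlier results of these data known. Named genes were the members, the other family genes, tested genes within 100 kb of Mt1, the 5 of nearest profile and up to 3 called genes per list. mm9 positions are as deposited, counted from 1. Promoters came from RefSeq (8 of 10 members matched) and transcripts from GENCODE M21, both on GRCm38, for sequence only. Alternatives were 2 pseudocounts, 2 filters, 2 scalings, a replicate block and leaving out each library. Other steps used Python 3.11.15, pandas 2.3.3, numpy 2.4.6, scipy 1.17.1 and matplotlib 3.10.9.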

Additional observations from a re-analysis of the deposited data

Results flagged for a closer look

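In 6 of the groups of 4 libraries examined, 1 library lay far from the other 3, by a gap whose share of the range of the group passed Dixon's critical value. Chance alone flags about 1 in 20 groups, and 84 were examined. Mtf1 was 3.97 FPKM in control replicate 3, below the other controls at 4.26 to 4.29 FPKM. Slc39a13 was 66.7 FPKM in that same control, above 59.5 to 60.3 FPKM in the others. Slc30a6 was 15.5 FPKM in control replicate 4, above 14.6 to 14.7 FPKM. Nqo1 was 45.5 FPKM in control replicate 1, below 52.7 to 54.1 FPKM. Slc39a9 was 14.7 FPKM in Fto siRNA replicate 1, below 15.2 to 15.3 FPKM, and Nup93 was 31.2 FPKM in Fto siRNA replicate 4, above 29.4 to 29.6 FPKM.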

How the results depend on the processing

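Over all tested genes limma called 794 higher and 1401 lower. With no filter on low values these counts were 485 and 839, and over the fits without 1 library 549 to 941 and 992 to 1432. Members called higher numbered 1, with 2 under no filter, 3 under median-ratio scaling, 3 under quantile normalization and 1 to 2 without 1 library, and members called lower numbered 2 under each alternative. Other family genes called higher numbered 1, with 2 under no filter, under median-ratio scaling and under quantile normalization, and 0 to 2 without 1 library. With the replicate number as a block this count was 0, since Slc39a9 had a limma adjusted p of 0.0551, and 628 genes were called higher and 1133 lower. No sign of pairing by number was seen: deviations of same-numbered libraries correlated over genes at 0.0736, -0.0402, -0.19 and -0.0895. Those of libraries with different numbers correlated at -0.178 to 0.176. Such weak values cannot settle whether the numbers pair the libraries. The log2 fold change of Slc39a11, 0.0110, ran from -0.0463 (without control replicate 1) to 0.0427 without 1 library. That of Slc39a1, -0.0045, was 0.0152 under median-ratio scaling, 0.0131 under quantile normalization and -0.0306 to 0.0113 without 1 library. The cause of these shifts was not tested. No counts were used, so depth limits the low genes: intervals reached up to 10.6% of the value for Slc30a1 against up to 2.75% for Slc39a7.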
